A study of Mus musculus with 12 samples.

Results

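Receptors of the interleukin 1 family and a set of other cytokine receptors were examined in 4 populations of sorted mouse CD4 T cells. The genes were given as a list of 10: Il1rl1, Il1r1, Il1r2, Il18r1, Il18rap, Il4ra, Il6ra, Il6st, Il12rb1 and Il21r. The array's annotation paired 17 probes with 9 of them, and all 9 were among the 12119 genes tested. Il1rl1 was not analysed here. Each gene is represented by its probe with the highest mean over the arrays, and values are log2 intensities, on which a difference of 1 is a doubling of signal.

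Naive CD4 T cells came from C57BL/6 mice, aged 8 to 12 weeks, whose Foxp3 locus reports its activity by a green fluorescent protein. One donor was Blimp1-sufficient (labelled Ctrl) and the other Blimp1-deficient (labelled CKO), and equal numbers of both were given to RAG1-/- hosts, which lack T and B cells of their own but have other blood cells. After 6 to 8 weeks in the shared hosts the progeny were sorted by allotype, CD4 and the reporter into Foxp3-positive cells (labelled pTreg, Treg below) and Foxp3-negative effector cells (Teff). Each of the 4 groups has 3 arrays. Cells of the large intestine's lamina propria, the spleen and mesenteric lymph nodes were pooled, and all were stimulated in vitro for 4 h with PMA and ionomycin, so no unstimulated level was measured. How Blimp1 was deleted, and with which promoter, the sources used here do not say, and nothing in the labels states that a group's arrays are from different animals. The p-values therefore cover the variation among these samples alone, which may be technical.

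Receptors of the interleukin 1 family signal through an intracellular domain that recruits the adaptor MyD88 and leads to NF-kB. Il1r1 encodes the signalling receptor for interleukin 1, whereas Il1r2 encodes a decoy that binds the same cytokine without signalling. Interleukin 18 binds the chain encoded by Il18r1 and needs the accessory chain encoded by Il18rap, and it promotes interferon gamma production by T cells and NK cells. The remaining genes encode chains of receptors that use JAK kinases and STAT factors. Il6ra encodes the chain that binds interleukin 6 and Il6st encodes gp130, the signalling chain shared by interleukin 6, leukemia inhibitory factor and other cytokines. Il12rb1 encodes a chain shared by the receptors for IL-12 and IL-23, Il4ra the chain shared by those for interleukin 4 and interleukin 13, and Il21r the specific chain of the interleukin 21 receptor.

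Some facts of the whole series bear on the values that follow. Foxp3 averaged 8.02 ± 0.84 (SD, n = 3) and 8.05 ± 0.67 in the Treg groups labelled Ctrl and CKO, and 4.58 ± 0.16 and 4.64 ± 0.19 in the matching Teff groups. Prdm1, which encodes Blimp1, was higher in the arrays labelled CKO, at 9.04 ± 0.52 against 5.77 ± 0.50 in Treg and 8.26 ± 0.64 against 4.92 ± 0.41 in Teff. The sources used here do not say if its probe lies in the deleted part, so every genotype direction below is that of arrays labelled CKO against arrays labelled Ctrl. The 6 tested of 8 T cell markers had a mean log2 value between 9.70 and 10.74 on every array, and that mean was lower in the CKO array of 6 of 6 same-numbered pairs, by 0.028 to 0.59. Of these markers 5 of 6 had a mean difference below 0 in Treg (median −0.39) and 6 of 6 in Teff (median −0.48), and 0 passed the test with or without pairs. Markers of other cells were uneven. The 7 tested of 8 mast cell and basophil markers averaged 10.59 and 9.58 on the CKO Teff arrays numbered 1 and 2 and 4.88 to 6.58 on the other arrays. The 4 tested of 6 markers of CD8 and NK cells averaged 6.59 to 8.61 in CKO Teff and 5.74 to 6.40 elsewhere. Klra7 (8.21 and 10.84) and Klre1 (8.31 and 10.33) had their highest values on the CKO Teff arrays numbered 1 and 2. Cd8b1 was lower there than on the Ctrl partners (9.31 and 8.45 against 9.52 and 8.80), and Klrb1c was at 4.68 and 4.80. Over the 12 arrays Cd8b1 was bright, at 8.45 to 10.02, whereas Cd4, among the T cell markers, was dim, at 4.95 to 6.40. The 11 tested of 12 neutrophil markers ran from 5.94 to 8.90 in Treg and from 6.41 to 9.94 in Teff. The part of these cells in the receptor values was not tested, apart from fits without the arrays concerned. In RNA of a sorted population, fewer cells of a type and less RNA per cell cannot be told apart.

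The first comparison asked whether receptor levels differ between the genotypes. By limma without pairs 0 of the 9 receptor genes passed at an adjusted p under 0.05 in Treg, where 0.099% of all genes were called, and 0 of 9 in Teff, where 0.0165% were. The groups did not overlap for 1 gene in Treg (12.3% of all genes) and 0 in Teff (6.77%). At an unadjusted p under 0.05 there was 1 in Treg (5.33% of all genes) and 0 in Teff (4.17%), with each gene read on its brightest probe. Il6st and Il18r1 were lower in the CKO array in 6 of 6 same-numbered pairs, a pattern that 3.67% of all genes share and that the T cell marker average shows too. Mean differences were below 0 for 7 of 9 genes in Treg, with a median of −0.087 against 0.0010 over all genes, and for 8 of 9 in Teff, with a median of −0.34 against −0.024. Below 0 were 49.7% of all genes in Treg and 55.8% in Teff. With the same-numbered arrays treated as pairs, 0 of 9 passed in either cell type, where 2.18% and 0.099% of all genes were called.

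The second comparison asked how Treg and Teff differ. In Ctrl 0 of 9 genes passed by limma without pairs (1.01% of all genes called) and 3 had an unadjusted p under 0.05 (10.4% of all genes). In CKO 0 of 9 passed (0.355% called) and again 3 were under that unadjusted limit (10.8%). The groups did not overlap for 3 of 9 genes in Ctrl (14.3% of all genes) and 3 of 9 in CKO (13.7%). The genes under that limit in Ctrl were Il1r1, Il18rap and Il12rb1, and those of CKO were Il12rb1, Il18rap and Il1r2. Il18rap was lower in all 6 Treg arrays than in all 6 Teff arrays and Il12rb1 was higher in all 6, whereas 2.37% of all genes separated the arrays in this way in either direction.

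**Figure D1:**
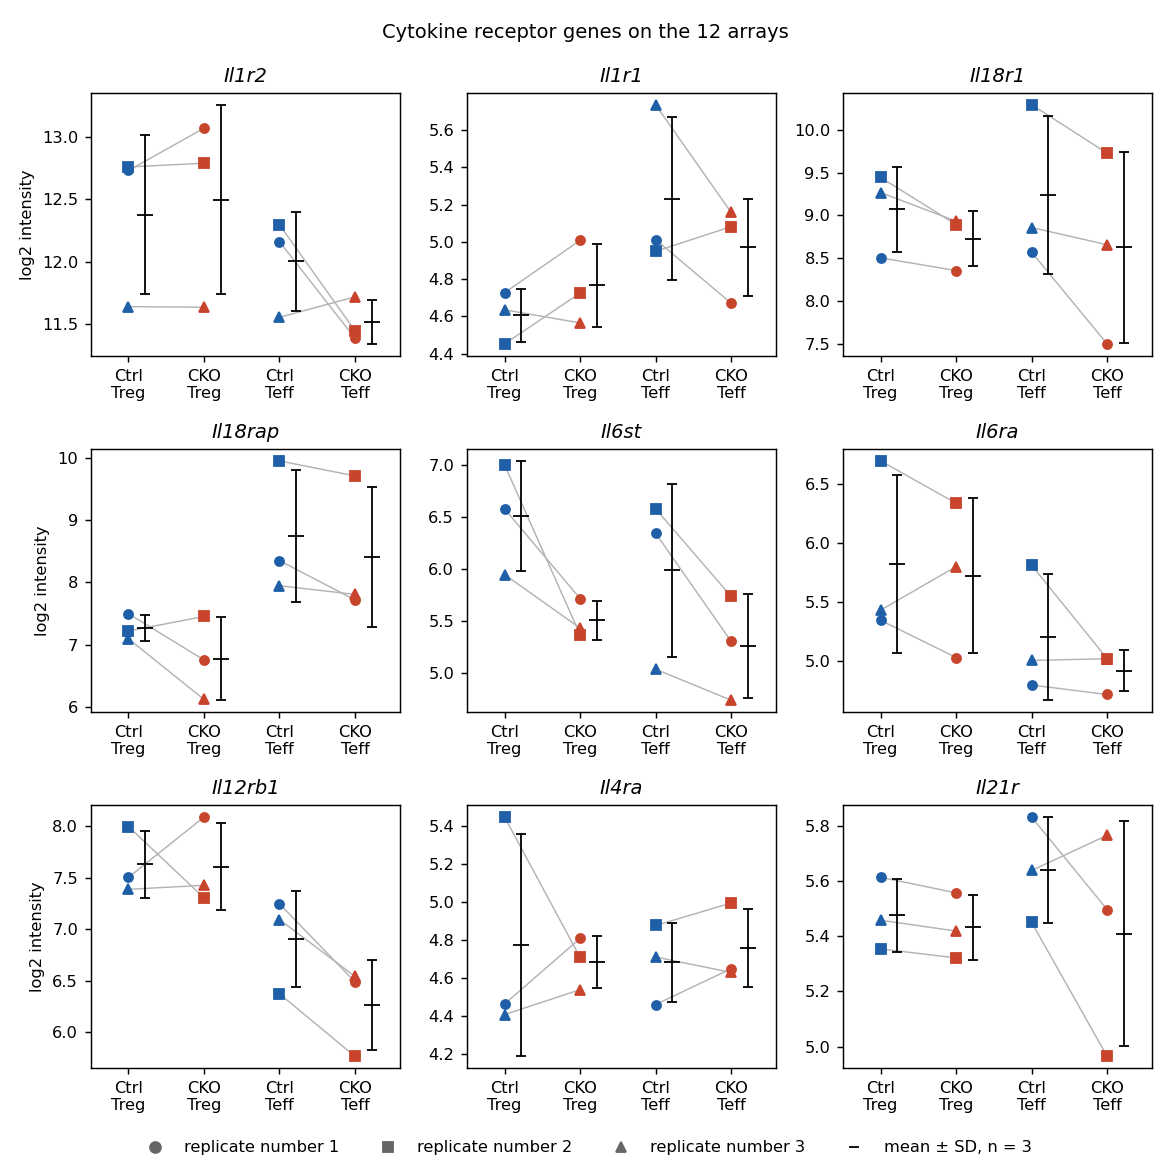
Log2 intensity (y axes, a separate scale for each gene) of 9 cytokine receptor genes on 12 arrays, by group on the x axis, with grey lines joining same-numbered Ctrl and CKO arrays and bars for the mean ± SD (n = 3). Il6st and Il18r1 are lower in the CKO array of each pair, and the Treg values of Il18rap (6.12 to 7.50) lie below its Teff values (7.72 to 9.95).

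Il1r2, the decoy receptor, had a bright probe, ILMN_2611000, at 11.39 or above on all 12 arrays. Its log2 values were 12.73, 12.76 and 11.64 in Ctrl Treg (arrays numbered 1, 2 and 3) and 13.07, 12.79 and 11.63 in CKO Treg. In Teff they were 12.16, 12.29 and 11.55 in Ctrl and 11.39, 11.45 and 11.72 in CKO. The arrays numbered 3 were the lowest of their group in Ctrl Treg, CKO Treg and Ctrl Teff, but the highest in CKO Teff, and all groups overlapped. Treg exceeded Teff by 0.98 ± 0.39 (SE) in CKO (unadjusted p = 0.0311, adjusted p = 0.397) and by 0.37 ± 0.39 in Ctrl (adjusted p = 0.868). CKO minus Ctrl was 0.12 (95% interval −0.75 to 0.99) for Treg and −0.49 (95% interval −1.36 to 0.39) for Teff. Neutrophils are a known source of this transcript. The neutrophil marker averages of the arrays numbered 1, 2 and 3 were 8.90, 6.29 and 8.84 in Ctrl Treg, 8.13, 5.94 and 8.30 in CKO Treg, 8.15, 9.94 and 6.41 in Ctrl Teff and 8.73, 9.41 and 7.29 in CKO Teff. They had the same order as Il1r2 in Ctrl Teff and not in the other groups, and their part in the Il1r2 values was not tested.

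Il1r1, the signalling receptor, was close to the array medians of 4.66 to 4.68 and above the median on 8 of 12 arrays. On probe ILMN_2711615 it read 4.73, 4.45 and 4.64 in Ctrl Treg and 5.01, 4.73 and 4.57 in CKO Treg. The Teff values were 5.01, 4.95 and 5.74 in Ctrl and 4.67, 5.08 and 5.16 in CKO. All 3 Ctrl Treg arrays lay below all 3 Ctrl Teff arrays, with a difference of −0.63 ± 0.22 (unadjusted p = 0.0167, adjusted p = 0.311). The groups overlapped in CKO, where the difference was −0.20 ± 0.22. CKO minus Ctrl was 0.16 (95% interval −0.33 to 0.65) for Treg and −0.26 (95% interval −0.75 to 0.23) for Teff. A second probe, ILMN_1231125, was under the median on all 12 arrays.

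The genes of the family stand side by side on mouse chromosome 1 in the order Il1r2, Il1r1, Il1rl2, Il1rl1, Il18r1 and Il18rap in RefSeq. On their brightest probes the neighbours Il18r1 and Il18rap had a Pearson r of 0.52 over the 12 arrays, a description over arrays that share groups. Both were highest on the Teff arrays numbered 2, at 10.29 in Ctrl and 9.73 in CKO for Il18r1 and 9.95 and 9.71 for Il18rap. The dimmer Il18r1 probe ILMN_1255514 was also highest there, at 8.05 and 7.85, and its correlation with Il18rap was not computed.

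Il18rap, the accessory chain, varied most of the 9 genes, with an SD of 1.11 over the 12 arrays. Probe ILMN_1221620 gave 7.50, 7.22 and 7.09 in Ctrl Treg and 6.75, 7.45 and 6.12 in CKO Treg. In Teff it gave 8.35, 9.95 and 7.95 in Ctrl and 7.72, 9.71 and 7.81 in CKO. Both Teff arrays numbered 2 stood above all others, and no Treg array reached any Teff array. In Ctrl the Treg mean of 7.27 ± 0.21 (SD, n = 3) lay 1.48 ± 0.61 below the Teff mean of 8.75 ± 1.06, a 2.79-fold lower level (unadjusted p = 0.0347, adjusted p = 0.412). In CKO the means were 6.77 ± 0.67 and 8.41 ± 1.13, a log2 fold change of −1.64 ± 0.61 (unadjusted p = 0.0220, adjusted p = 0.352). In a fit on the means of same-numbered CKO and Ctrl arrays the difference was −1.56 ± 0.54 (adjusted p = 0.432, 0.396% of all genes called). The Teff arrays numbered 2 also carried the highest neutrophil marker averages, 9.94 in Ctrl and 9.41 in CKO. Without both of them the difference was −0.88 ± 0.33 in Ctrl (adjusted p = 0.389) and −0.99 ± 0.33 in CKO (adjusted p = 0.390), so it was smaller while the groups stayed apart. In the fit without the CKO Teff arrays numbered 1 and 2, which carried the mast cell and basophil markers, it was −1.03 ± 0.71 in CKO. That value rests on 1 CKO Teff array, number 3, which is assumed to vary like the other groups. Between genotypes Il18rap was lower in the CKO array of 5 of 6 pairs, by 0.50 ± 0.61 on average in Treg and 0.34 ± 0.61 in Teff (adjusted p = 1.00 in each).

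Il18r1, the chain that binds interleukin 18, gave 8.50, 9.44 and 9.27 in Ctrl Treg and 8.36, 8.89 and 8.93 in CKO Treg on probe ILMN_1218525. The Teff arrays gave 8.57, 10.29 and 8.86 in Ctrl and 7.50, 9.73 and 8.66 in CKO. The CKO array was the lower of every pair, by 0.15 to 1.07, although the groups overlapped in both cell types because the pairs stood at different heights. The mean differences were −0.34 ± 0.56 in Treg and −0.61 ± 0.56 in Teff, and over the 6 pairs the difference was −0.48 ± 0.12 (95% interval −0.76 to −0.20, limma adjusted p = 0.135). A dimmer second probe, ILMN_1255514, did not show it in Treg, where its means were 6.18 ± 0.27 in Ctrl and 6.26 ± 0.32 in CKO, against 6.72 ± 1.16 and 6.48 ± 1.19 in Teff. Treg and Teff did not separate on the main probe, with differences of −0.17 (95% interval −1.42 to 1.08) in Ctrl and 0.10 (95% interval −1.15 to 1.35) in CKO.

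**Figure D2:**
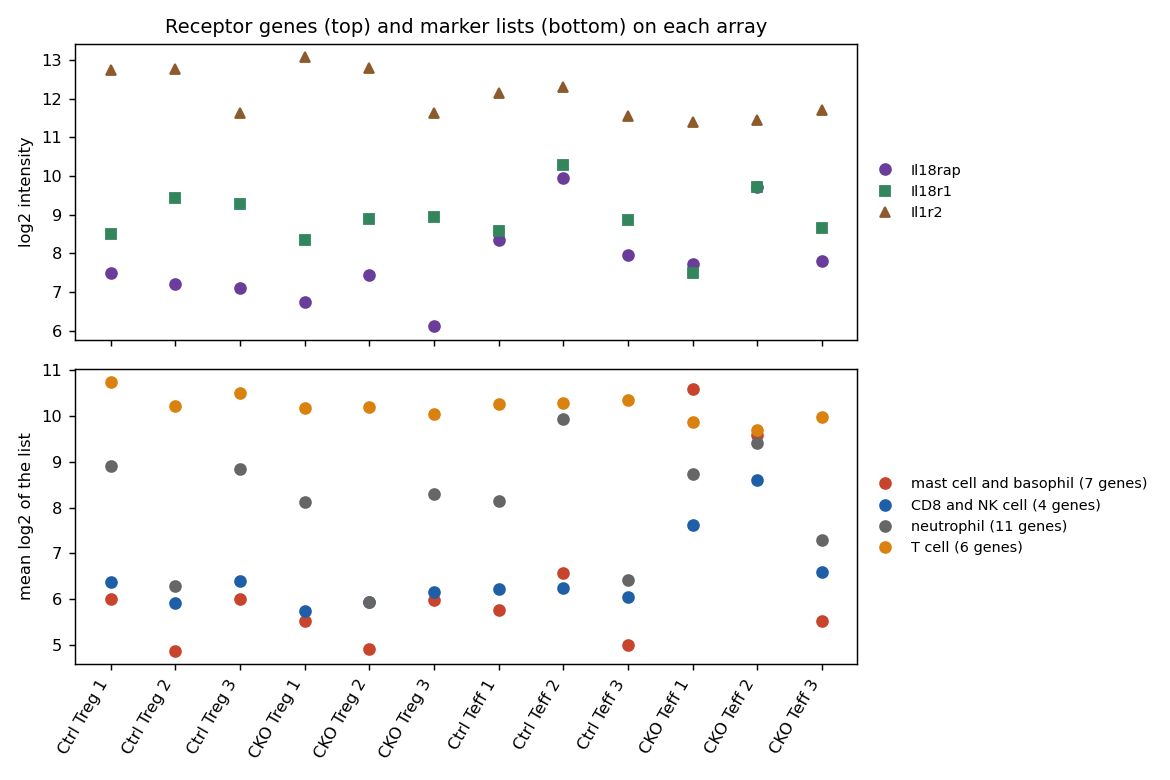
Log2 intensity of Il18rap, Il18r1 and Il1r2 (top) and the mean log2 value of 4 marker lists (bottom) on each of the 12 arrays; levels are to be compared between arrays, not between genes. Both Teff arrays numbered 2 are highest for Il18rap (9.95 and 9.71) and for neutrophil markers (9.94 and 9.41), and the mast cell and basophil list stands out at 10.59 and 9.58 on the CKO Teff arrays numbered 1 and 2.

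Il6st, the gp130 chain, had the largest genotype difference of the 9 genes in each cell type. On probe ILMN_2608184 the Ctrl Treg arrays read 6.58, 7.004 and 5.95 and the CKO Treg arrays 5.71, 5.37 and 5.43. The Ctrl Teff arrays read 6.35, 6.58 and 5.03 and the CKO Teff arrays 5.30, 5.74 and 4.73. All 3 CKO Treg arrays lay below all 3 Ctrl Treg arrays, while the Teff groups overlapped. The Treg mean was 6.51 ± 0.53 (SD, n = 3) for Ctrl and 5.50 ± 0.19 for CKO, a 2.01-fold lower level with a log2 difference of −1.01 ± 0.41 (unadjusted p = 0.0326, adjusted p = 0.848). With pairs the standard error was 0.22 and the adjusted p 0.0539. When 1 pair was left out of that fit, it passed in 1 of 6 fits, without the Teff pair numbered 3 (adjusted p = 0.0469). Leaving out a Teff pair kept the Treg difference at −1.01 and changed only its error. It missed without each Treg pair, with adjusted p from 0.0963 to 0.219. In Teff the difference was −0.73 ± 0.41 (adjusted p = 1.00, and 0.260 with pairs). Within pairs it was −0.87, −1.64 and −0.52 in Treg and −1.04, −0.84 and −0.30 in Teff. Over the 6 pairs together it was −0.87 ± 0.16 (95% interval −1.22 to −0.51), with an adjusted p of 0.0571 that ran from 0.0531 to 0.150 when 1 pair was left out, so the threshold was missed each time. The difference between Treg and Teff in this response was −0.28 (95% interval −1.56 to 1.00). Without the CKO Teff arrays numbered 1 and 2, which carried mast cell and basophil markers, only CKO Teff 3 is left. It was 0.30 below its own partner, which was the lowest Ctrl Teff array, and 1.25 ± 0.57 below the mean of the 3 Ctrl Teff arrays, with its spread taken from the other groups. The T cell marker average was also lower in CKO in the same 6 pairs, and its part in the differences of Il6st and Il18r1 was not tested.

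Il6ra, the chain that binds interleukin 6, was lower in the CKO array of 4 of 6 pairs and higher in 2. Probe ILMN_1255743 read 5.35, 6.70 and 5.43 in Ctrl Treg and 5.03, 6.34 and 5.80 in CKO Treg. It read 4.80, 5.81 and 5.01 in Ctrl Teff and 4.72, 5.02 and 5.02 in CKO Teff. The arrays numbered 2 were the highest of their group, or level with the highest, in each of the 4 groups. The genotype differences were −0.10 (95% interval −1.03 to 0.82) in Treg and −0.29 (95% interval −1.21 to 0.64) in Teff. Treg lay above Teff by 0.62 ± 0.42 in Ctrl, where the groups overlapped, and by 0.80 ± 0.42 in CKO, where they were apart by 0.0094 (adjusted p = 0.725 and 0.547). Of 2 dimmer probes, ILMN_2706430 had the same sign, with 4.67 ± 0.17 in CKO Treg and 4.54 ± 0.16 in CKO Teff, and ILMN_1216057 the opposite one, with 4.85 ± 0.18 and 4.96 ± 0.10. The same held in Ctrl, where the differences were 0.12 ± 0.11 and −0.11 ± 0.12.

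The windows upstream of Il6st and Il18rap, the genes with the largest genotype and the largest Treg to Teff differences, are shown because they differ in base composition. Each is the 250 bases before the annotated start (RefSeq, GRCm38.p6, plus strand), at chr13:112463820-112464069 for Il6st and chr1:40515112-40515361 for Il18rap, with CG dinucleotides in capitals.
Il6st: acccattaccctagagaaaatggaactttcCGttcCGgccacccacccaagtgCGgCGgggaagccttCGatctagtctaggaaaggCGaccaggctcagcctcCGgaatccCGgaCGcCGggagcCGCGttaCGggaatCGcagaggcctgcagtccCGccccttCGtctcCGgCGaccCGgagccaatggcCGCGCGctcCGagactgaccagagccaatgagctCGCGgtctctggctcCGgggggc
Il18rap: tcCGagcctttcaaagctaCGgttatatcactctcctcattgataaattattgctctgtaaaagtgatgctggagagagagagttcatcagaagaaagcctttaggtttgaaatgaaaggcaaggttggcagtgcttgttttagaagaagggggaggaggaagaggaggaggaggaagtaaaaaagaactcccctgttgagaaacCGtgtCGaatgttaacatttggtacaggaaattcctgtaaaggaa
The Il6st window holds 26 CG dinucleotides at a GC content of 66.0%, and that of Il18rap holds 4 at 42.0%. Over 32851 such windows the medians were 6 and 52.4%. A search on both strands for GTGAAAG, the core of the site bound by Blimp1, found it in 0 of the 13 windows of the listed genes, 9 of 10 of which had a window, and in 3.57% of all windows. The STAT motif TTCNNNGAA was found in 2 of the 13, that of Il1r2 and 1 of those of Il18r1, and in 7.02% of all windows, and the AP-1 motif TGANTCA in 0 of 13 and 6.75% of all. These counts describe the letters in the windows and no binding was measured.

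**Figure D3:**
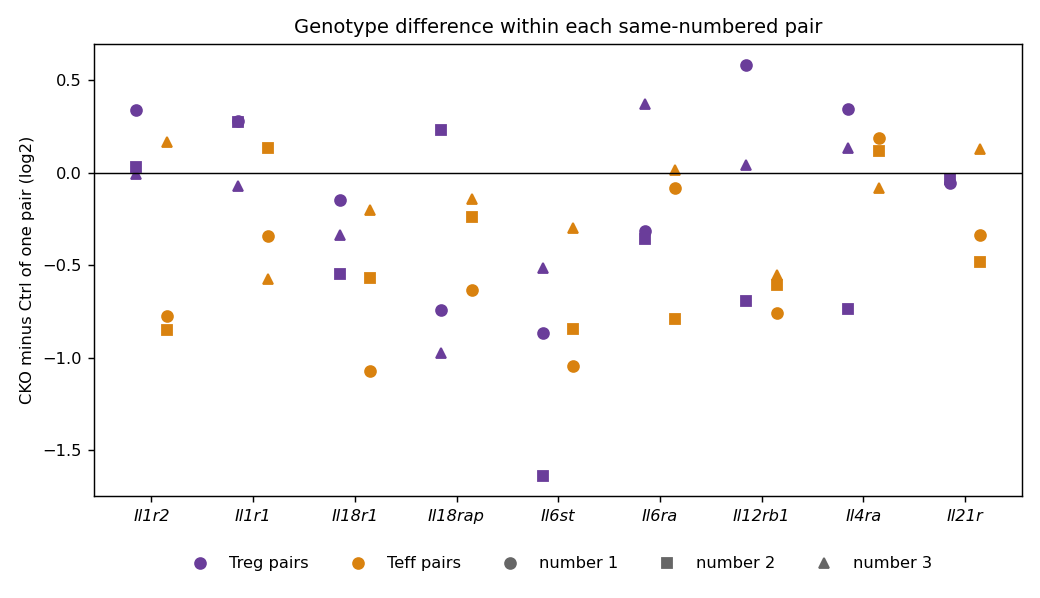
Difference in log2 intensity between the CKO and the Ctrl array of each same-numbered pair (y axis) for 9 receptor genes (x axis), with Treg pairs in purple and Teff pairs in orange. All 6 points of Il6st (−1.64 to −0.30) and of Il18r1 (−1.07 to −0.15) lie below the line at 0, and those of the other genes lie on both sides.

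Il12rb1, the chain shared by the IL-12 and IL-23 receptors, was the receptor gene that came closest to the threshold between Treg and Teff. On probe ILMN_1227900 it read 7.50, 8.00 and 7.39 in Ctrl Treg and 8.09, 7.31 and 7.43 in CKO Treg. It read 7.25, 6.37 and 7.09 in Ctrl Teff and 6.49, 5.77 and 6.54 in CKO Teff. The lowest Treg array, at 7.31, was above the highest Teff array, at 7.25. In CKO the Treg mean of 7.61 ± 0.42 (SD, n = 3) exceeded the Teff mean of 6.27 ± 0.43 by 1.34 ± 0.31, or 2.53-fold (unadjusted p = 0.00126, adjusted p = 0.108). In Ctrl the difference was 0.72 ± 0.31 (adjusted p = 0.431), and in the fit on means of same-numbered arrays 1.03 ± 0.24 (adjusted p = 0.223). The Teff arrays numbered 2 were the lowest of their group, at 6.37 in Ctrl and 5.77 in CKO. Without that pair the fit on means gave 0.77 ± 0.15 (adjusted p = 0.192). The CKO Teff arrays numbered 1 and 2 carried mast cell and basophil markers and the highest Klra7 and Klre1 values. Without them the CKO difference was 1.06 ± 0.41, a value that sets the CKO Treg arrays against CKO Teff 3 alone. A second probe, ILMN_2799452, had the same direction, with 6.71 ± 0.32 in CKO Treg against 5.73 ± 0.26 in CKO Teff and 6.88 ± 0.31 in Ctrl Treg against 6.47 ± 0.60 in Ctrl Teff. On that probe the Treg and Teff arrays overlapped, with Ctrl Teff 1 at 6.96 above CKO Treg 2 at 6.45. Its difference in Ctrl was 0.40 ± 0.29. Between genotypes the CKO array was lower in 3 of 3 Teff pairs, by 0.64 ± 0.31 (unadjusted p = 0.0629, adjusted p = 1.00), a pattern that 17.7% of all genes share. In Treg the difference was −0.023 (95% interval −0.70 to 0.66). In Treg the genotype difference was higher than in Teff by 0.62 ± 0.43 (adjusted p = 1.00). On the second probe CKO minus Ctrl was −0.75 ± 0.29 in Teff (limma on single probes, unadjusted p = 0.0273, adjusted p = 0.9998). In Treg that probe gave −0.16 ± 0.29.

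Il4ra and Il21r were dim and varied least. Il4ra, on probe ILMN_2738433, was above the array median on 6 of 12 arrays and lay between 4.41 and 5.45, with the highest value on the Ctrl Treg array numbered 2. Its genotype differences were −0.087 (95% interval −0.64 to 0.47) in Treg and 0.075 (95% interval −0.48 to 0.63) in Teff. Il21r, on probe ILMN_2603242, lay between 4.96 and 5.83. In Treg its CKO array was lower in 3 of 3 pairs, as in 18.2% of all genes, but by 0.056 or less, with a mean difference of −0.043 (95% interval −0.47 to 0.38), and in Teff the difference was −0.23 (95% interval −0.65 to 0.19). Treg and Teff differed by −0.16 ± 0.19 in Ctrl and 0.023 ± 0.19 in CKO. On these probes all 4 groups overlapped for both genes. The dimmer Il21r probe ILMN_1259867 gave genotype differences of −0.24 ± 0.13 in Treg and −0.048 ± 0.13 in Teff. Probe ILMN_3120000, dimmer still, gave −0.0088 ± 0.093 in Treg and −0.21 ± 0.093 in Teff.

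**Figure D4:**
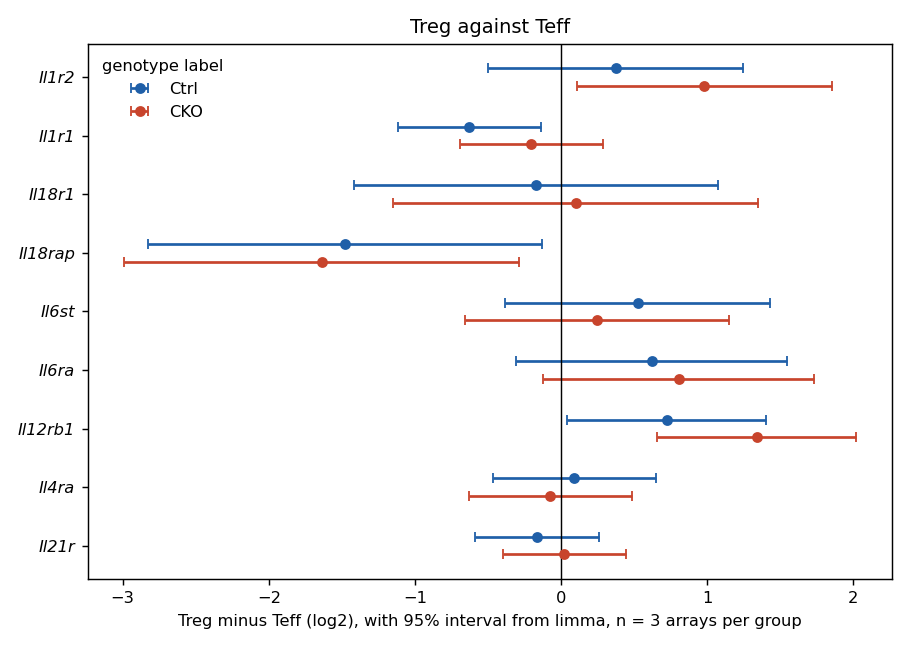
Treg minus Teff in log2 intensity (x axis) for 9 receptor genes (y axis), as the limma estimate with its 95% interval (n = 3 arrays per group), in blue for Ctrl and red for CKO. The intervals of Il18rap lie below 0 and those of Il12rb1 above 0 in both genotypes, and no gene passed after adjustment over all genes.

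The interaction asked whether the genotype difference depends on the cell type, and 0 of 9 genes passed (0.0165% of all genes called), with 0 at an unadjusted p under 0.05 (3.48% of all). Estimates ran from −0.28 for Il6st to 0.62 for Il12rb1. The 9 genes did not move as a block over the 12 arrays. Among their correlations, which are descriptions over arrays that share groups, Il12rb1 and Il18rap were opposed (r = −0.77), and Il1r2 and Il12rb1 went together (r = 0.66). The genes most like Il18rap by Pearson r over the 12 arrays were Usp38 (0.956), Man2a2 (0.942) and Dusp8 (0.939). Those most like Il18r1 were Fyco1 (0.887), Zfand3 (0.870) and Dgka (0.862), and those most like Il6st were Mif4gd (0.943), Gstp3 (0.910) and Rasgrp1 (0.901).

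Ligands, partner chains and signalling genes of these receptors were taken from 6 lists with 89 genes, of which 71 were tested. Between the genotypes 0 of the 71 passed without pairs in Treg or Teff, with 13 and 4 at an unadjusted p under 0.05 (5.33% and 4.17% of all genes). With pairs 7 passed in Treg, 3 higher in CKO (0.883% of all genes called) and 4 lower (1.3%), and 0 in Teff. Without pairs, 2 were higher (0.602% of all genes called) and 1 lower (0.413%) in Treg than in Teff in Ctrl, and 0 passed in CKO (0.355% called) or in the interaction (0.0165%). At an unadjusted p under 0.05 there were 17 in Ctrl, 19 in CKO and 5 in the interaction, against 10.4%, 10.8% and 3.48% of all genes.

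Among the ligands of the gp130 family, Lif, which encodes leukemia inhibitory factor and signals through the chain encoded by Il6st, was higher in the CKO array of 6 of 6 pairs, as were 3.01% of all genes. It read 6.37, 8.13 and 6.32 in Ctrl Treg and 10.41, 10.01 and 9.51 in CKO Treg, and 7.84, 8.99 and 5.09 in Ctrl Teff and 10.66, 11.11 and 9.28 in CKO Teff. The genotypes did not overlap in either cell type. With pairs Lif rose by 3.04 ± 0.43 in Treg (adjusted p = 0.0129, and 0.473 without pairs), and stood at 3.04 ± 0.43 in Teff (adjusted p = 0.0542, and 0.983 without pairs). Over the 6 pairs it rose by 3.04 ± 0.30 (95% interval 2.36 to 3.72, adjusted p = 0.00823, 0.00834 to 0.0413 when 1 pair was left out). That fit called 0.545% of all genes. It counts the Treg and Teff pairs as independent, which the labels do not state. On the CKO Teff array numbered 3, where the mast cell and basophil markers averaged 5.53, Lif was at 9.28 against 5.09 on its Ctrl partner. Ebi3, the subunit shared by IL-27 and other dimeric cytokines, was higher in Treg than in Teff in Ctrl, at 8.91, 9.18 and 8.60 against 6.44, 7.79 and 6.68, a difference of 1.92 ± 0.33 without pairs (adjusted p = 0.0231). That call was lost without any 1 of the arrays Ctrl Treg 1, Ctrl Treg 2, Ctrl Teff 1 or Ctrl Teff 3, with adjusted p up to 0.120.

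Of the receptor chains outside the 9, Sigirr, an inhibitory member of the interleukin 1 receptor family, was higher in CKO Treg. It read 7.40, 6.82 and 6.39 in Ctrl Treg and 8.53, 7.69 and 8.00 in CKO Treg, a rise of 1.20 ± 0.15 with pairs (adjusted p = 0.00778, and 0.571 without pairs). Sigirr was also higher in the CKO array of each Teff pair, at 5.96, 5.78 and 6.93 in Ctrl and 6.47, 6.38 and 7.41 in CKO. A rise in 6 of 6 pairs is a pattern that 3.01% of all genes share. Il10ra, the chain that binds interleukin 10, read 7.71, 7.11 and 7.52 in Ctrl Treg and 5.09, 5.63 and 5.15 in CKO Treg. It fell by 2.16 ± 0.33 with pairs (adjusted p = 0.0168, and 0.848 without pairs). The Teff pairs of Il10ra went both ways, at 6.65, 8.30 and 5.82 in Ctrl and 7.38, 8.86 and 4.81 in CKO. When 1 pair was left out of the fit, Sigirr passed in 5 of 6 fits and missed without the Treg pair numbered 1 (adjusted p = 0.0653). The fits without a Teff pair kept each Treg difference and changed only its error. Of the fits without a Treg pair, Sigirr passed without number 2 (adjusted p = 0.0214) and number 3 (0.0433), and Il10ra without number 2 (0.0488). Il10ra passed in 4 of 6 and missed without the Treg pairs numbered 1 (adjusted p = 0.120) and 3 (0.114).

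Among the signalling genes, Socs2, a feedback inhibitor of cytokine receptors, and Stat4, the STAT activated by interleukin 12, went in opposite directions in Treg. Socs2 read 10.63, 10.28 and 10.19 in Ctrl Treg and 8.03, 9.01 and 8.46 in CKO Treg. It fell by 1.86 ± 0.35 with pairs (adjusted p = 0.0346, and 0.107 without pairs). Its Teff pairs went both ways, at 7.72, 8.41 and 8.85 in Ctrl and 8.51, 7.99 and 7.64 in CKO. Stat4 read 8.82, 8.85 and 9.21 in Ctrl Treg and 10.575, 10.001 and 10.007 in CKO Treg and rose by 1.23 ± 0.18 with pairs (adjusted p = 0.0129, and 0.290 without pairs). Stat4 was also higher in the CKO array of each Teff pair, at 11.05, 11.25 and 10.15 in Ctrl and 11.12, 11.32 and 10.54 in CKO. Between Treg and Teff in Ctrl, a comparison that shares the Ctrl Treg arrays, Socs2 was higher by 2.04 ± 0.33 (adjusted p = 0.0172 without pairs) and Stat4 lower by a log2 fold change of −1.86 ± 0.30 (adjusted p = 0.0170). Both of these calls were lost without any 1 of the arrays Ctrl Treg 1, Ctrl Treg 2, Ctrl Teff 1 or Ctrl Teff 2, with adjusted p up to 0.0840 for Socs2 and 0.0891 for Stat4. In the MyD88 and NF-kB list, Peli1, a ubiquitin ligase, fell by 0.98 ± 0.15 with pairs in CKO Treg (adjusted p = 0.0168, and 0.137 without pairs), from 9.33, 9.22 and 9.36 to 8.41, 8.08 and 8.47. Nfkbia, which encodes the inhibitor that holds NF-kB in the cytoplasm, fell by 0.66 ± 0.13 (adjusted p = 0.0362, and 1.00 without pairs), from 11.89, 11.62 and 10.92 to 11.001, 11.23 and 10.21. The Teff pairs of both genes went both ways. Peli1 read 8.67, 8.95 and 8.91 in Ctrl Teff and 8.59, 9.05 and 8.29 in CKO Teff. Nfkbia read 11.12, 11.71 and 10.44 in Ctrl Teff and 11.17, 11.66 and 10.28 in CKO Teff. With 1 pair left out, Lif passed in 4 of 6 fits and missed without the Treg pairs numbered 1 (adjusted p = 0.0956) and 3 (0.0963). Stat4 passed in 4 of 6 and missed without the Treg pairs numbered 1 (adjusted p = 0.0744) and 2 (0.0684). Peli1 passed in 3 of 6, missing without each Treg pair (adjusted p up to 0.104). Socs2 and Nfkbia each passed in 2 of 6, missing without each Treg pair and without the Teff pair numbered 2, with adjusted p up to 0.206 and 0.207. Here too the fits without a Teff pair kept each Treg difference and changed only its error. Of the fits without a Treg pair, Lif passed without number 2 (adjusted p = 0.0223) and Stat4 without number 3 (0.029).

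**Figure D5:**
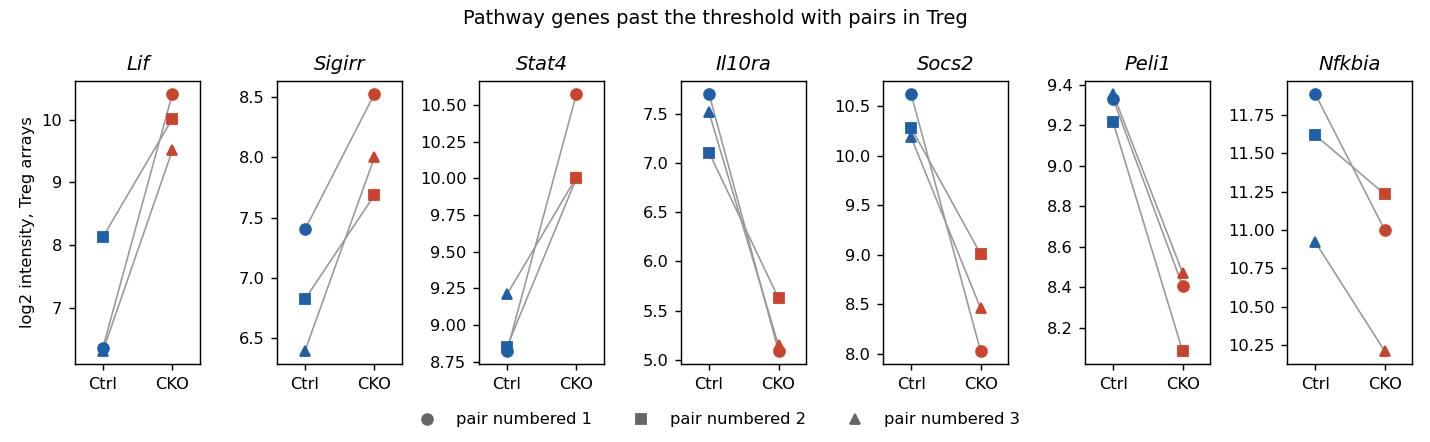
Log2 intensity (y axes, a separate scale for each gene) of 7 ligand, receptor and signalling genes on the Treg arrays, with lines joining same-numbered Ctrl and CKO arrays. Lif, Sigirr and Stat4 are higher and Il10ra, Socs2, Peli1 and Nfkbia lower in the CKO array of each of the 3 pairs.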

How the data were processed

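RNA was purified on Qiagen columns, made into biotin-labelled cRNA and hybridised to 12 Illumina arrays, per the labels' protocols. The deposited log2 intensities per probe were used as they are; the sources used here do not give the authors' normalization or background correction, and the log2 scale was read from the values. GenomeStudio and limma 3.30.11 are named in the submitters' processing notes. Of 31641 probes, 28197 had 1 gene symbol, 5 several and 3439 none. A probe was kept when above its array's median on at least 3 arrays, which left 17579, and a gene was represented by its kept probe with the highest mean, which left 12119 genes.

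The tests used limma 3.58.1 (R 4.3.3; lmFit, then eBayes), 1 mean per group, all 12 arrays (10.5 total degrees of freedom), Benjamini-Hochberg adjusted over all genes, two-sided. Errors of log2 fold changes are SE. Named genes are the 10 receptors, Prdm1, Foxp3, up to 4 genes per list and comparison past the threshold, and the 3 genes most correlated with each of the 3 most variable receptors. The members and lists were chosen with earlier results of these data known. The number of arrays limits the precision.

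Residuals of same-numbered CKO and Ctrl arrays correlated at 0.519 to 0.589 in Treg and 0.348 to 0.737 in Teff over genes, so the replicate numbers were taken to pair them; the labels do not state a pairing. The fits over 6 pairs, on pair means and without named arrays were chosen after seeing the data. The fit over 6 pairs counts the Treg and Teff pairs as independent. Both cell types were sorted from shared hosts, so its errors and p-values may be too small. Alternatives were quantile normalization, the 75th percentile or no filter, probe means per gene, eBayes with trend and robust settings, only the arrays compared, the replicate block and leaving out each array. The pipeline was also run on simulated data with independent noise on each array. Those data held no variation shared within pairs, so they could not check the pairing used here.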

Additional observations from a re-analysis of the deposited data

How the results depend on the processing

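Of 889 recomputed values for the 9 receptor genes, 834 kept their direction and their side of the threshold, 54 changed sign and 1 passed. The 1 that passed was Il12rb1 between Treg and Teff in CKO, with adjusted p = 0.0450 with the replicate number as a block, which made the count of genes past the threshold 1 in place of 0 there, while 2.06% of all genes were called. Those numbers did not pair Treg with Teff (residual correlations −0.266 to 0.265 in Ctrl and 0.0413 to 0.325 in CKO), and with pairs no other receptor call changed. Without any 1 of the 12 arrays the counts past the threshold were 0 in all 5 comparisons, with the smallest adjusted p at 0.0584. With the 75th percentile filter 5 of the 9 genes were tested.

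Signs changed for 21 of 45 results, all of them with a size of 0.34 or less in the fit as reported. Over the fits without 1 array, the results that changed sign ran from −0.25 to 0.55 for Il1r2, −0.27 to 0.25 for Il4ra, −0.41 to 0.33 for Il6ra, −0.26 to 0.16 for Il12rb1 and −0.11 to 0.026 for Il21r between genotypes in Treg. In Teff they ran from −0.99 to 0.26 for Il18rap, −0.043 to 0.17 for Il4ra and −0.49 to 0.018 for Il6ra. Between Treg and Teff they ran from −0.50 to 0.36 for Il18r1 and −0.25 to 0.27 for Il4ra in Ctrl, and from −0.47 to 0.65 for Il18r1, −0.14 to 0.046 for Il4ra, −0.016 to 0.49 for Il6st and −0.20 to 0.20 for Il21r in CKO. For the interaction they ran from −0.30 to 0.82 for Il18r1, −0.76 to 0.49 for Il18rap, −0.34 to 0.17 for Il4ra, −0.12 to 0.62 for Il6ra, −0.57 to 0.20 for Il6st and −0.034 to 0.37 for Il21r. Without the CKO Teff arrays numbered 1 and 2, an alternative chosen after seeing the data, CKO Teff 3 stands alone in its group against the 3 arrays of each other group. In that fit the genotype difference in Teff was −0.053 for Il4ra and 0.13 for Il21r, Treg minus Teff in CKO was 0.056 for Il4ra and −0.33 for Il21r, and the interaction was 0.45 for Il18rap, 0.25 for Il6st and −0.17 for Il21r. Without both Teff arrays numbered 2, Treg minus Teff was 0.36 for Il18r1 in Ctrl and 0.046 for Il4ra and −0.20 for Il21r in CKO, and the interaction was −0.069 for Il6ra. With the mean of a gene's probes, Treg minus Teff in CKO was −0.055 for Il18r1 and −0.011 for Il21r. The cause of these sign changes was not tested. Il1r1 and Il4ra lay near the array medians, where signal over background limits what a difference can show.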
